A study of Mus musculus with 8 samples.

Results

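The 40 genes described here belong to autophagy, mitophagy and muscle proteolysis. They were taken as a list of gene symbols, and each of the 40 was found in the table, which holds 14569 genes. Each of them also passed the filter on low values that left 13776 genes for testing. By role they fall into 9 genes of initiation and the phagophore, 11 of the LC3 and GABARAP conjugation system, 6 cargo receptors and mitophagy genes, 8 genes of the lysosome and its regulators, and 6 genes of the atrophy ligases, the calpains and the FoxO factors. RNA of the left ventricle had been sequenced from mice aged 6 months, with a shared C57 background. The groups were wild type (WT, 2 libraries), mdx (3 libraries) and mdx sln+/- (3 libraries). The mdx mouse carries a mutation of Dmd and lacks dystrophin, which ties the cytoskeleton of muscle fibres to the membrane. The mdx sln+/- mice carry the same mutation and in addition keep only 1 functional allele of Sln, the gene of sarcolipin, an inhibitor of the calcium pump SERCA. A WT group with 1 Sln allele is not analysed here, so an effect of that allele can be read only on the mdx background, and the level of Sln itself is not analysed here. Each library name holds a number of its own after the letter M or S, but the labels do not say whether it stands for an animal. Each p-value therefore reflects only how far these libraries vary, which may in part be technical.

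In autophagy, the ULK1 kinase complex (ULK1, ATG13, ATG101 and the scaffold FIP200, encoded by Rb1cc1) starts the growth of a membrane sheet, the phagophore. Proteins of the LC3 and GABARAP family are then coupled to lipids of that membrane by a chain of ATG enzymes, receptors such as p62 (Sqstm1) or BNIP3 tie cargo or whole mitochondria to it, and fusion with the lysosome delivers the cargo to cathepsins. Heart muscle also degrades proteins through the proteasome, with MuRF1 (Trim63) and atrogin-1 (Fbxo32) as muscle ubiquitin ligases, and through the calcium-activated calpains. FoxO factors are known to raise transcription of the ligases and of several autophagy genes, while TFEB and TFE3 act on lysosomal genes.

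Levels are given as log2(value + 1), where the value is the normalized abundance of a gene summed over its transcripts. Depth is unknown because no counts were used, and abundances of a library summed to between 780262 and 924253. Dmd, the check of the genotype labels, was at 6.60 and 6.98 in WT, 4.30, 4.32 and 4.22 in mdx, and 4.09, 4.10 and 4.25 in mdx sln+/-. All 10 cardiomyocyte markers were in the table. Their summed abundance was 46370 to 47750 in WT, 49980 to 53860 in mdx and 49650 to 52700 in mdx sln+/-, so WT was lowest. By limma 0 of 10 were called in each comparison, with 2 at an unadjusted p under 0.05 in each comparison with WT. Of all tested genes 15.1% were called in mdx against WT, 15.9% in mdx sln+/- against WT and 0.0% between mdx sln+/- and mdx. An unadjusted p under 0.05 was found for 32.4% and 33.7% in the comparisons with WT. Counts of so few genes cannot show that cardiomyocyte content was unchanged. Some libraries stood apart. Y-linked transcripts differed within groups, with Eif2s3y at 6.11 and 0.92 in the WT libraries and lowest in WT 2 and mdx sln+/- 3. Ddx3y was at 6.64 in WT 1 and 1.29 in WT 2. Sex is not among the labels used here, and a part of it in the differences from WT was not tested. Libraries 1 and 2 of each dystrophin-deficient group have longer names in the labels, with a suffix whose meaning is not stated, while both WT libraries, mdx 3 and mdx sln+/- 3 have short names without it. In each transcript the deposited mean of mdx 2 and mdx sln+/- 2 also equals that of the other 4 dystrophin-deficient libraries, to within 5.12e-05, so the model holds a term for that contrast. It leaves 4 residual degrees of freedom. When mdx 2 or mdx sln+/- 2 is left out, the term fits the other of them exactly. A refit without mdx 2 and a refit without mdx sln+/- 2 therefore drop the same pair of libraries and are not separate checks.

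Promoter sequences are shown to let the reader see which genes carry an E-box with the letters CACGTG, the core read by TFEB and TFE3, and which carry the forkhead letters GTAAACA, a core read by FoxO factors. RefSeq promoters (build GRCm38.p6, 250 bases before to 50 after the start) were found for 31 of the 40 genes. The Lamp1 window lies at chr8:13159051-13159160 (plus strand), that of Mcoln1 at chr8:3500409-3500518 (plus strand), that of Atg3 at chr16:45158719-45158828 (plus strand) and that of Bnip3 at chr7:138909507-138909616 (minus strand). Each of these covers the 110 bases before the start. The Trim63 window lies further upstream, at chr4:134314910-134314959 (plus strand). Sequences read 5′ to 3′ on the strand of the gene, and capitals mark CACGTG or, in Trim63, the reverse complement of GTAAACA.
Lamp1: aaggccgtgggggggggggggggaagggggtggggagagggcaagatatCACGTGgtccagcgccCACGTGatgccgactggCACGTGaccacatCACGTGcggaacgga
Mcoln1: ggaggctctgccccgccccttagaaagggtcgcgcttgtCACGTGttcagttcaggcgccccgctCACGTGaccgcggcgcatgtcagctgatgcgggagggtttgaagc
Atg3: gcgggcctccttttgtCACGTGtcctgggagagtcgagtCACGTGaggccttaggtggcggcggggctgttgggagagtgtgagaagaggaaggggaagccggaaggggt
Bnip3: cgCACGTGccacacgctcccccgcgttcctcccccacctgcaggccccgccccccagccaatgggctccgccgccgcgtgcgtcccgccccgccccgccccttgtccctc
Trim63: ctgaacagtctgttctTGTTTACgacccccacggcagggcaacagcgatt
Searched on both strands, CACGTG was in a promoter of 8 of the 31 genes (25.8%), against 8.09% of the 27025 genes with a RefSeq promoter and 11.8% of the 9507 tested genes with one. A gene with several promoters counts once. The 8 genes were Atg3, Atg5, Atg7, Bnip3, Ctsd, Ctsl, Lamp1 and Mcoln1, and Lamp1 held 4 copies in the window shown. Atg7 is counted by a RefSeq start at chr6:114671096, which lies inside the gene. Its tested transcripts start between 114643097 and 114643127, so the match is not in the promoter of any of them. GTAAACA was in 1 of the 31 genes (3.23%), Trim63, against 4.05% of all genes with a promoter and 3.13% of tested ones. The longer CLEAR element of lysosomal genes was searched only as an exact match to 1 palindrome that contains the E-box letters. That match was in 0 of the 31 genes and in 0.81% of tested genes with a promoter. Variants with any letter changed were not counted, so this search cannot show that the 31 genes lack the element. A match describes the letters of the window and is not a site of binding.

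In mdx against WT, Ulk1, Rb1cc1 and Atg13 of the initiation complex fell, as did Gabarapl1 of the LC3 family, the mitophagy receptor Bnip3 and the transcription factor Foxo1. Capn1, the large subunit of calpain 1, rose. A gene is called here when its limma p, adjusted by Benjamini-Hochberg over all tested genes, is under 0.05. These were 7 of the 40 genes, 1 higher and 6 lower, beside 15.1% of all tested genes (8.15% higher and 6.95% lower). The median difference of the 40 was -0.092, beside 0.020 for all tested genes. In 22 of the 40 (55.0%) the mdx and WT libraries did not overlap, 6 higher and 16 lower in mdx, beside 51.4% of all tested genes (27.8% higher and 23.6% lower). An unadjusted p under 0.05 was found for 12 of the 40, beside 32.4%. In bulk RNA fewer cells of a type and less RNA per cell cannot be told apart. Of all tested genes 2080 were called with all libraries. This count was 575 without WT 2, 1012 without mdx 1 and 899 without mdx sln+/- 1. It was 126 without WT 2 and mdx sln+/- 3 together, and 559 with the name style as a term. Without WT 2 the count of called genes among the 40 was 2, without mdx 1 or mdx sln+/- 1 it was 4, and without WT 2 and mdx sln+/- 3 together it was 0. With the name style as a term in the model it was 4. With only the short-named libraries, 2 WT against 1 mdx library (whose spread is assumed to be like that of the other groups), it was 0, and the 7 differences kept their directions, from -0.78 in Atg13 to 0.28 in Capn1.

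In mdx sln+/- against WT, 8 of the 40 were called, beside 15.9% of all tested genes (9.41% higher and 6.5% lower). Ulk1, Rb1cc1, Atg13, Bnip3 and Foxo1 fell. Gabarap, the cathepsin gene Ctsb and Capn1 rose. This comparison and the one of mdx against WT share both WT libraries, so the values of each gene are given side by side and their likeness is not read as a result. The median difference of the 40 was 0.003, beside 0.053 for all tested genes, and the libraries did not overlap in 21 of 40 (52.5%), 11 higher and 10 lower, beside 59.8% of all tested genes (36.4% higher and 23.5% lower). An unadjusted p under 0.05 was found for 13 of the 40, beside 33.7%. With the name style as a term 2 of the 40 were called, and with only the short-named libraries 1. With median-ratio scaling 5 of the 40 were called, and the calls of Gabarap, Ctsb and Capn1 ended. Of all tested genes 2191 were called with all libraries. This count was 711 with the name style as a term and 2074 with median-ratio scaling. It was 316 without mdx sln+/- 1, 761 without WT 2, 583 without mdx sln+/- 3 and 1668 without WT 1. It was 1661 without mdx 2, 1674 without mdx sln+/- 2, and 39 without WT 2 and mdx sln+/- 3 together. Among the 40 genes the count was 1 without mdx sln+/- 1, and without WT 2 or mdx sln+/- 3 it was 2. Without mdx 2 or mdx sln+/- 2, refits that drop the same pair, it was 3. Without WT 1 it was 4, and without WT 2 and mdx sln+/- 3 together it was 0.

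**Figure D1:**
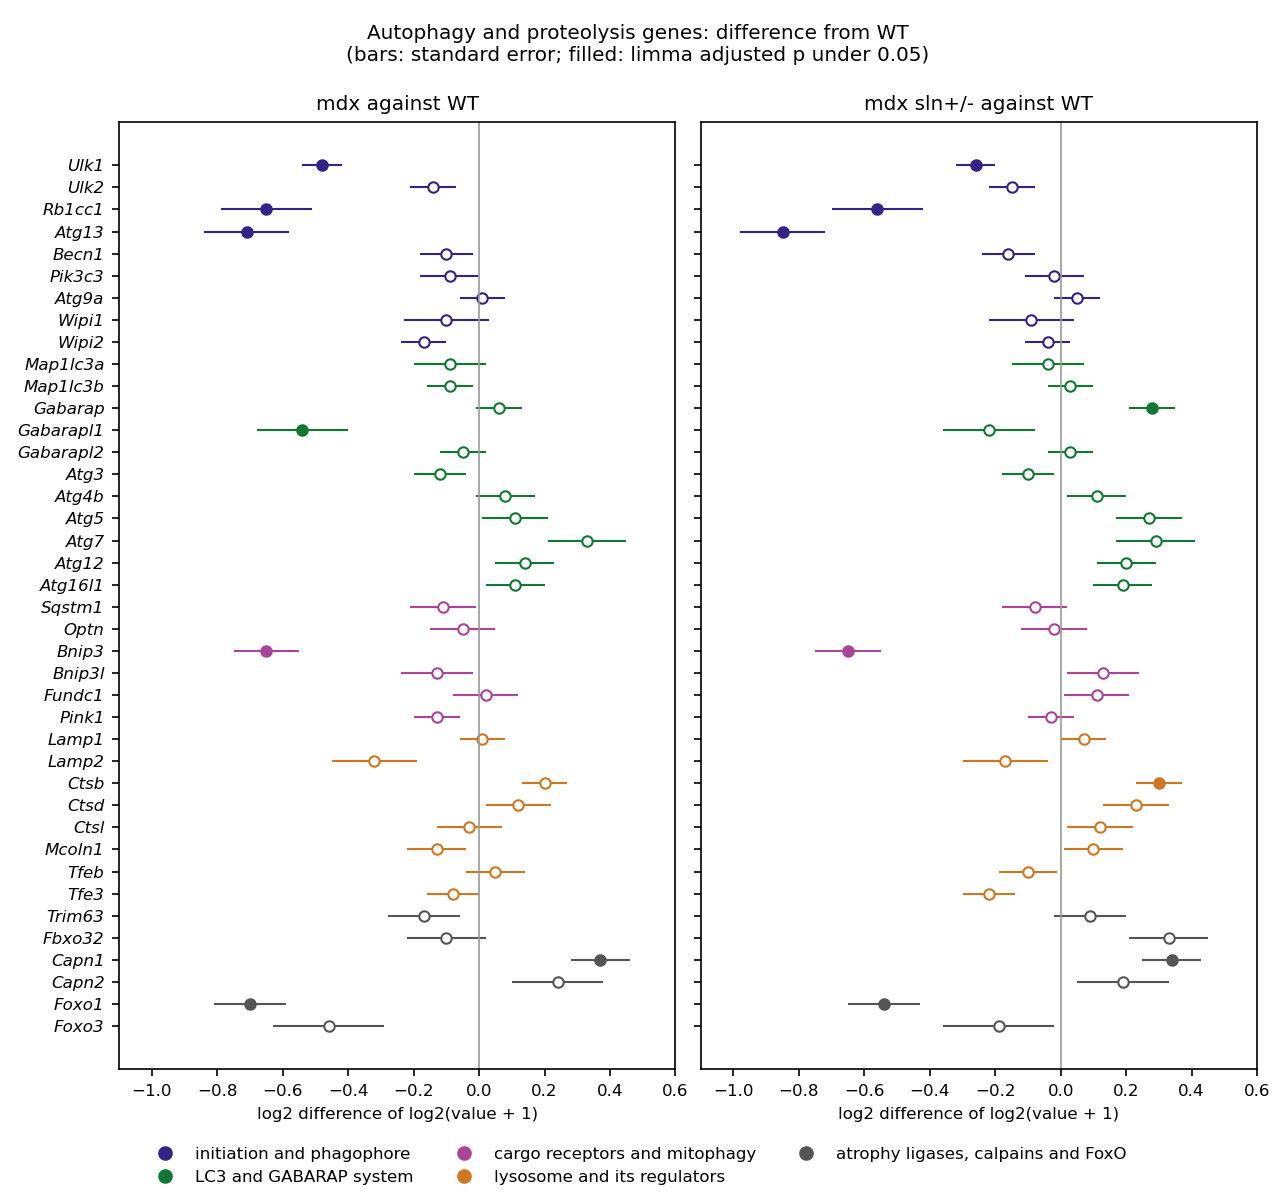
Log2 difference of log2(value + 1) from WT for each of the 40 genes, in mdx (left) and mdx sln+/- (right), with 2 WT and 3 libraries in each other group; bars are standard errors, filled points have a limma adjusted p under 0.05, and colours are roles. Ulk1, Rb1cc1, Atg13, Bnip3 and Foxo1 lie left of 0 with filled points in both panels, and Capn1 lies right of 0 in both.

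Of the 9 genes of initiation and the phagophore 3 fell, 0 rose and 6 did not pass in mdx against WT, and the same counts held in mdx sln+/- against WT. These are 33.3% of the role, beside 15.1% and 15.9% of all tested genes called, in a role of few genes. Ulk1 encodes the kinase that starts autophagy. Its level was 6.61 and 6.58 in WT, 6.10, 6.09 and 6.14 in mdx, and 6.33, 6.36 and 6.33 in mdx sln+/-. The 3 groups did not overlap, with WT highest, mdx lowest and mdx sln+/- between them. Ulk1 fell by 0.48 ± 0.06 (SE) in mdx against WT (adjusted p = 0.00607), so that abundance fell by 28.5%, and by 0.26 ± 0.06 in mdx sln+/- against WT (adjusted p = 0.034). The first call held without each single library (adjusted p up to 0.0321). It ended when only the WT and mdx libraries were fitted (adjusted p = 0.0512), where the term takes up mdx 2. The second ended without WT 1, WT 2, mdx 2, mdx sln+/- 1, mdx sln+/- 2 or mdx sln+/- 3 (adjusted p = 0.0822, 0.0943, 0.0524, 0.177, 0.052 and 0.14).

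Atg13 encodes the adaptor subunit of the same kinase complex. It stood at 6.37 and 6.64 in WT, 5.98, 5.69 and 5.73 in mdx, and 5.63, 5.77 and 5.57 in mdx sln+/-. Both WT libraries lay above all 6 others, which overlapped between their groups. The gene fell by 0.71 ± 0.13 (adjusted p = 0.0164) in mdx against WT and by 0.85 ± 0.13 (adjusted p = 0.00915) in mdx sln+/- against WT. Without WT 2 the first call ended (adjusted p = 0.0833), and without mdx sln+/- 1 the second (adjusted p = 0.0552).

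Rb1cc1, the gene of the scaffold FIP200, was at 5.98 and 6.28 in WT, 5.28, 5.47 and 5.69 in mdx, and 5.55, 5.58 and 5.59 in mdx sln+/-. The mdx libraries spread widely and enclosed the mdx sln+/- values, and all 6 lay under WT. The gene fell by 0.65 ± 0.14 (adjusted p = 0.0242) in mdx and by 0.56 ± 0.14 (adjusted p = 0.0378) in mdx sln+/-. The first call ended without WT 2, mdx 1 or mdx sln+/- 1 (adjusted p = 0.12, 0.066 and 0.0539). The second ended without WT 2, mdx 2, mdx sln+/- 1, mdx sln+/- 2 or mdx sln+/- 3 (adjusted p = 0.172, 0.0645, 0.147, 0.0642 and 0.106), and with the mean of the transcript log2 values in place of their sum at a difference of -0.34 (adjusted p = 0.0922).

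The other initiation genes did not pass. Ulk2, the paralogue of Ulk1, was 6.25 and 6.21 in WT and between 6.03 and 6.14 in the other 6 libraries, a difference of -0.14 ± 0.07 in mdx (adjusted p = 0.199). Becn1 and Pik3c3 encode parts of the lipid kinase complex that marks the phagophore, and their differences in mdx were -0.10 ± 0.08 and -0.09 ± 0.09. These sums mix transcript types. Most Becn1 abundance (72.1% to 79.9% across libraries) was in Becn1-201, annotated for nonsense-mediated decay. In mdx the coding Becn1-217 stood at -0.70 ± 0.19 (limma adjusted p = 0.0581). Coding Pik3c3-203 stood at -0.63 ± 0.23 and Pik3c3-204, annotated for decay, at 0.25 ± 0.13 (limma adjusted p = 0.129 and 0.262). Atg9a, the gene of a membrane protein of the vesicles that feed the phagophore, differed by 0.01 ± 0.07. For Wipi1 and Wipi2, which bind the phagophore lipid, the values were -0.10 ± 0.13 and -0.17 ± 0.07, with adjusted p of 0.637 and 0.138. So the 3 called genes of this role encode parts of the ULK1 complex, and the other 6 genes had differences from -0.17 to 0.01. Atg101, the gene of a further part of that complex, is not among the 40. It belongs to the other autophagy genes described below, of which 0 of 25 were called in each comparison with WT.

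Among the 11 genes of the LC3 and GABARAP system, 1 fell and 0 rose in mdx against WT, while 1 rose and 0 fell in mdx sln+/- against WT, or 9.1% of the role beside 15.1% and 15.9% of all tested genes. Gabarapl1 encodes a GABARAP family protein of the autophagosome membrane. It was at 7.07 and 7.12 in WT, 6.68, 6.37 and 6.62 in mdx, and 6.88, 7.05 and 6.69 in mdx sln+/-. The mdx libraries were lowest, and the mdx sln+/- libraries lay between the groups without overlapping either, though the gaps were small. It fell by 0.54 ± 0.14 in mdx against WT (adjusted p = 0.0387), while the difference in mdx sln+/- against WT was -0.22 ± 0.14 (adjusted p = 0.282). The call ended without WT 1, WT 2, mdx 1, mdx 3 or mdx sln+/- 1 (adjusted p = 0.0974, 0.15, 0.0632, 0.0703 and 0.0789).

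Gabarap, the founding member of that family, was at 6.92 and 7.03 in WT, 6.97, 7.07 and 7.08 in mdx, and 7.30, 7.22 and 7.24 in mdx sln+/-. The mdx sln+/- libraries were the highest, and mdx overlapped WT. It differed by 0.06 ± 0.07 in mdx against WT (adjusted p = 0.59) and rose by 0.28 ± 0.07 in mdx sln+/- against WT (adjusted p = 0.045), an increase of 21.2%. This call ended without any library except mdx 1 (adjusted p from 0.0619 to 0.216), with a replicate block (adjusted p = 0.0528) and with median-ratio scaling (adjusted p = 0.078).

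The remaining members of the conjugation system did not pass. Map1lc3a and Map1lc3b, the LC3 genes, differed by -0.09 ± 0.11 and -0.09 ± 0.07 in mdx, and Gabarapl2 by -0.05 ± 0.07. The E1-like enzyme gene Atg7 was at 3.75 and 3.42 in WT and between 3.80 and 4.02 in the 6 other libraries. Its differences were 0.33 ± 0.12 in mdx (adjusted p = 0.112) and 0.29 ± 0.12 in mdx sln+/- (adjusted p = 0.153). Atg5, Atg12 and Atg16l1, whose products form the complex that places LC3 on the membrane, differed by 0.11 ± 0.10, 0.14 ± 0.09 and 0.11 ± 0.09 in mdx, and by 0.27 ± 0.10, 0.20 ± 0.09 and 0.19 ± 0.09 in mdx sln+/-. For Atg5 in mdx sln+/- the adjusted p was 0.10. The E2-like gene Atg3, with its pair of E-boxes above, stood at -0.12 ± 0.08 in mdx, and the LC3 protease gene Atg4b at 0.08 ± 0.09.

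In the role of cargo receptors and mitophagy, 1 of 6 genes (16.7%) fell and 0 rose in each comparison with WT, beside 15.1% and 15.9% of all tested genes called. Bnip3 encodes a receptor in the outer mitochondrial membrane. Its level was 7.40 and 7.58 in WT, 6.78, 6.85 and 6.87 in mdx, and 6.97, 6.82 and 6.72 in mdx sln+/-. All 6 dystrophin-deficient libraries were under both WT libraries and overlapped each other. It fell by 0.65 ± 0.10 in mdx (adjusted p = 0.00958) and by 0.65 ± 0.10 in mdx sln+/- (adjusted p = 0.0092), so that abundance fell by 36.5% and 36.4%. The call in mdx ended without WT 2 (adjusted p = 0.0549), and with the mean of the transcript log2 values in place of their sum it ended at a difference of -0.34 (adjusted p = 0.0738).

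Bnip3l, its paralogue NIX, was at 5.19 in each WT library, at 4.91, 5.0 and 5.26 in mdx, and at 5.30, 5.38 and 5.28 in mdx sln+/-. Neither difference from WT passed, at -0.13 ± 0.11 in mdx (adjusted p = 0.465) and 0.13 ± 0.11 in mdx sln+/- (adjusted p = 0.45). Pink1, the kinase that accumulates on damaged mitochondria, was at 9.27 and 9.33 in WT and between 9.17 and 9.18 in mdx, without overlap, at -0.13 ± 0.07 (adjusted p = 0.24). The receptor genes Sqstm1, Optn and Fundc1 differed by -0.11 ± 0.10, -0.05 ± 0.10 and 0.02 ± 0.10 in mdx.

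None of the 8 lysosomal genes was called in mdx against WT, where 2 had an unadjusted p under 0.05 in limma (Ctsb and Lamp2), and 1 (12.5%) rose in mdx sln+/- against WT. Beside these stand 15.1% and 15.9% of all tested genes called, and 32.4% with an unadjusted p under 0.05 in mdx. Ctsb encodes cathepsin B, a lysosomal cysteine protease. It was at 8.79 and 8.70 in WT, 8.93, 8.98 and 8.93 in mdx, and 9.01, 9.01 and 9.10 in mdx sln+/-. The groups did not overlap, with WT lowest and mdx sln+/- highest. The difference was 0.20 ± 0.07 in mdx against WT (adjusted p = 0.109), and Ctsb rose by 0.30 ± 0.07 in mdx sln+/- against WT (adjusted p = 0.038), or 22.8%. The call held only with all libraries or without mdx 1, with an adjusted p from 0.0517 to 0.169 without each of the others, and it ended with median-ratio scaling (adjusted p = 0.0569). Macrophage markers, of which 5 of 16 were called higher in each comparison with WT, had a summed abundance of 274.5 to 279.0 in WT, 346.4 to 438.7 in mdx and 357.1 to 421.9 in mdx sln+/-. Their part in the level of Ctsb, which macrophages also express, was not tested.

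Lamp2, whose product is needed for fusion of autophagosomes with lysosomes in heart, was at 7.08 and 7.29 in WT, 6.66, 6.92 and 7.04 in mdx, and 7.0, 6.97 and 7.08 in mdx sln+/-. The highest mdx library came close to the lower WT library, and the difference of -0.32 ± 0.13 did not pass (adjusted p = 0.139). Lamp1, a related membrane protein of lysosomes, stood at 0.01 ± 0.07 in mdx with a 95% interval from -0.15 to 0.18. The proteases Ctsd and Ctsl differed by 0.12 ± 0.10 and -0.03 ± 0.10 in mdx, and the calcium channel gene Mcoln1 by -0.13 ± 0.09. Tfeb and Tfe3, the regulators of lysosomal genes, differed by 0.05 ± 0.09 and -0.08 ± 0.08 in mdx. In mdx sln+/- against WT, Tfe3 stood at -0.22 ± 0.08 (adjusted p = 0.107). Of the 8 genes with CACGTG in the promoter, 0 rose and 1, Bnip3, fell in each comparison with WT. Atg7 is among the 8 only by the RefSeq start inside the gene. Their median difference was -0.01 in mdx and 0.11 in mdx sln+/-. Of the 23 genes whose promoters lack it, 1 rose in mdx and 4 fell, with a median of -0.10. In mdx sln+/- 2 of the 23 rose and 3 fell, with a median of -0.04. Beside these counts stand 15.1% and 15.9% of all tested genes called, and a part of the motif in them was not tested.

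The 6 genes of the atrophy ligases, calpains and FoxO factors held 1 gene that rose and 1 that fell in each comparison with WT (33.3%, beside 15.1% and 15.9% of all tested genes called). Foxo1 encodes a forkhead factor that acts on autophagy and atrophy genes. It was at 5.13 and 5.0 in WT, 4.30, 4.26 and 4.51 in mdx, and 4.46, 4.62 and 4.49 in mdx sln+/-. Both WT libraries were above the 6 others. Foxo1 fell by 0.70 ± 0.11 in mdx (adjusted p = 0.01), so that abundance fell by 38.6%, and by 0.54 ± 0.11 in mdx sln+/- (adjusted p = 0.0204). The first call held without each single library (adjusted p up to 0.0414), and the second ended without WT 1, WT 2, mdx sln+/- 1 or mdx sln+/- 3 (adjusted p = 0.0728, 0.0602, 0.111 and 0.0839). Markers of clock output and glucocorticoid response, of which 8 of 13 were called lower in mdx and 7 in mdx sln+/-, had a summed abundance of 1094 to 1136 in WT, 460.3 to 582.1 in mdx and 525.6 to 703.7 in mdx sln+/-. Their part in the levels of Foxo1 and the other genes that fell was not tested.

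Capn1 was at 4.23 and 4.06 in WT, 4.61, 4.51 and 4.43 in mdx, and 4.48, 4.49 and 4.48 in mdx sln+/-. Both WT libraries were under the 6 others. It rose by 0.37 ± 0.09 in mdx (adjusted p = 0.0369), or 29.3%, and by 0.34 ± 0.09 in mdx sln+/- (adjusted p = 0.0471). The first call ended without WT 2, mdx 1, mdx 2, mdx sln+/- 1, mdx sln+/- 2 or mdx sln+/- 3 (adjusted p = 0.153, 0.104, 0.0611, 0.0914, 0.0607 and 0.0713). The second ended without WT 2, mdx 2, mdx sln+/- 1, mdx sln+/- 2 or mdx sln+/- 3 (adjusted p = 0.187, 0.0796, 0.179, 0.0794 and 0.146). Capn2, the large subunit of calpain 2, ran from 5.88 to 6.04 in WT and from 6.03 to 6.35 in mdx, a difference of 0.24 ± 0.14 (adjusted p = 0.258).

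Foxo3, the other FoxO factor of the list, was at 6.94 and 7.09 in WT, 6.57, 6.35 and 6.72 in mdx, and 6.89, 7.02 and 6.55 in mdx sln+/-. The mdx libraries lay under WT, while mdx sln+/- 3 fell among the mdx values and the other 2 among or near WT. The difference of -0.46 ± 0.17 in mdx did not pass (adjusted p = 0.103). The ligase genes Trim63 and Fbxo32 differed by -0.17 ± 0.11 and -0.10 ± 0.12 in mdx against WT, with adjusted p of 0.339 and 0.578.

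**Figure D2:**
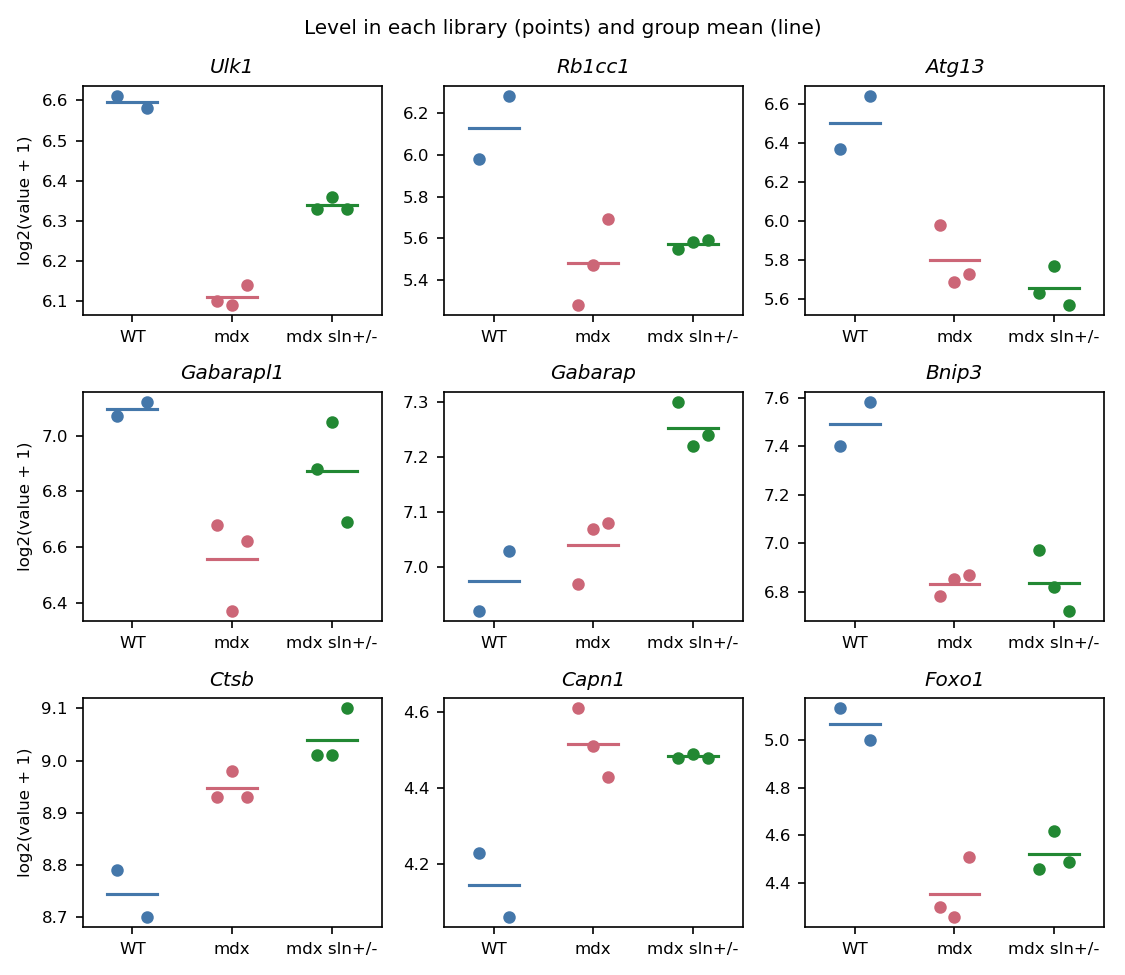
Level, as log2(value + 1), in each library (points) and group mean (lines) for the 9 genes called in a comparison with WT, with 2 WT, 3 mdx and 3 mdx sln+/- libraries; each panel has its own axis, which does not start at 0. WT points lie above all others for Ulk1, Rb1cc1, Atg13, Gabarapl1, Bnip3 and Foxo1 and below all others for Capn1 and Ctsb.

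Between mdx sln+/- and mdx none of the 40 genes was called by limma (smallest adjusted p = 0.578), beside 0.0% of the 13776 tested genes, whose smallest adjusted p was 0.477. At an unadjusted p under 0.05 there were 7 of the 40, beside 8.62% of all tested genes. These were Ulk1, Fbxo32, Gabarap, Mcoln1, Gabarapl1, Trim63 and Bnip3l, and each had its higher mean in mdx sln+/-. Of the 40 genes 32 (80.0%) had a positive difference, beside 60.3% of all tested genes, and the groups did not overlap in 18 (45%), 16 higher and 2 lower, beside 24.8% of all tested genes (16.8% higher and 7.99% lower). These shares move with the scaling. With median-ratio scaling 26 of the 40 (65.0%) were positive, beside 49.4% of all genes, and 8 were higher and 4 lower without overlap (30%, beside 23.9%).

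Fbxo32 had the largest difference of the 40. Its level was 7.05, 6.90 and 7.07 in mdx and 7.31, 7.55 and 7.46 in mdx sln+/-, with WT at 7.24 and 6.98. The mdx sln+/- libraries were above all 5 others, and mdx overlapped WT. The difference between mdx sln+/- and mdx was 0.43 ± 0.10 with a 95% interval from 0.20 to 0.67 (unadjusted p = 0.003, adjusted p = 0.578), and it stayed between 0.32 and 0.51 across the alternatives. The other muscle ligase, Trim63, was at 6.94, 6.73 and 6.92 in mdx and 6.96, 7.25 and 7.16 in mdx sln+/-. The groups were separated by only a small gap, and the difference was 0.26 ± 0.10 (unadjusted p = 0.0284, adjusted p = 0.578), with a range from 0.13 to 0.35.

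The difference in Ulk1 between mdx sln+/- and mdx was 0.23 ± 0.05 with an interval from 0.11 to 0.35 (unadjusted p = 0.00296, adjusted p = 0.578). It ranged from 0.07 to 0.25 across the alternatives. For Gabarap and Gabarapl1 it was 0.21 ± 0.06 and 0.32 ± 0.12, with ranges from 0.17 to 0.25 and from 0.07 to 0.42. These genes reach the autophagosome membrane as proteins of the same family, and both had every mdx sln+/- library above every mdx library. For Gabarapl1 the gap was small, with the lowest mdx sln+/- library at 6.69 and the highest mdx library at 6.68. Bnip3l differed by 0.26 ± 0.10 and its paralogue Bnip3 by 0.00 ± 0.09, with an interval from -0.20 to 0.20 for Bnip3 and a range over the alternatives from 0.02 to 0.38 for Bnip3l. Mcoln1, the channel gene with E-boxes in the window shown, was at 4.10, 3.99 and 4.11 in mdx and 4.32, 4.37 and 4.18 in mdx sln+/-, a difference of 0.23 ± 0.08 with a range from 0.07 to 0.29.

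Tfeb and Tfe3 were the 2 genes whose mdx sln+/- libraries all lay under mdx. Tfeb was at 4.67, 4.84 and 4.75 in mdx and 4.64, 4.51 and 4.66 in mdx sln+/-, a difference of -0.15 ± 0.08 with an interval from -0.34 to 0.04. Tfe3 was at 3.79, 3.80 and 3.70 in mdx and 3.64, 3.59 and 3.66 in mdx sln+/-, a difference of -0.13 ± 0.07 with an interval from -0.29 to 0.03. The gap between groups was small in both genes, and neither passed (adjusted p = 0.62 and 0.616). Across the alternatives Tfeb ranged from -0.20 to -0.06 and Tfe3 from -0.20 to -0.03. Rb1cc1, Atg13 and Foxo1, which were low in both dystrophin-deficient groups, differed by 0.09 ± 0.12, -0.14 ± 0.11 and 0.16 ± 0.09 between them, and the libraries overlapped.

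**Figure D3:**
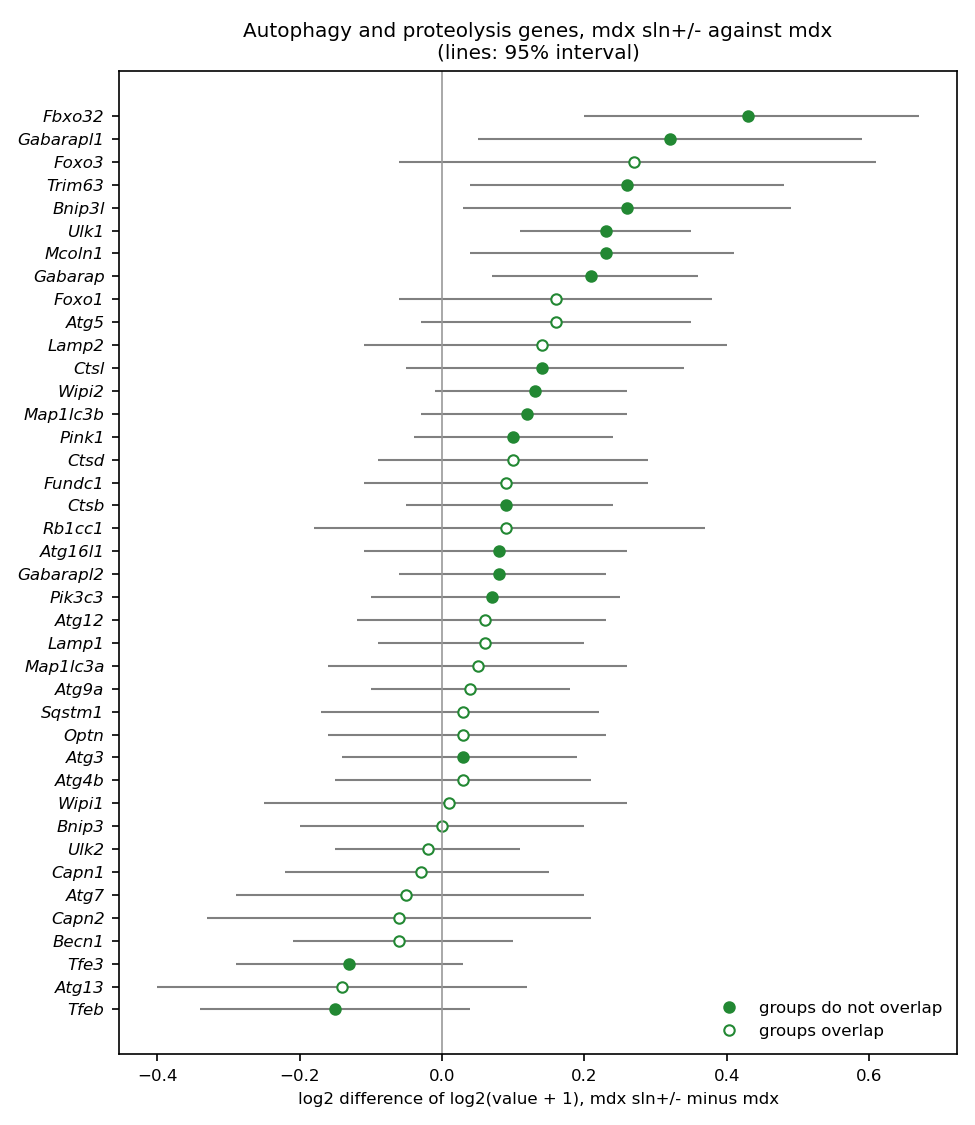
Log2 difference of log2(value + 1) between mdx sln+/- (3 libraries) and mdx (3 libraries) for the 40 genes in order of size, with lines for the 95% interval and filled points where the groups do not overlap. The points run from -0.15 in Tfeb to 0.43 in Fbxo32, 32 of them are above 0, and none was called after adjustment.

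At the level of transcripts, 124 transcripts of the 40 genes were in the table and 112 were tested. Reads shared by transcripts of 1 gene are divided by the quantification, so transcript values are less certain than gene values. In mdx against WT 7 transcripts of 5 genes fell and 0 rose, beside 8.29% of 29021 transcripts called. They were Ulk1-201, Rb1cc1-216, Atg13-201, Atg13-202, Atg13-206, Bnip3-201 and Foxo1-201. Ulk1-201 made up 93.6% to 95.5% of the gene's abundance in the 8 libraries, Bnip3-201 98.3% to 99.2%, and Foxo1-201 all of it, so these 3 genes rest on 1 transcript each. Their calls ended without WT 2 in each of the 3 transcripts (adjusted p = 0.0591, 0.0775 and 0.0623), for Ulk1-201 also without mdx sln+/- 1 (0.0515) and for Foxo1-201 also without WT 1 or mdx 1 (0.0561 and 0.053).

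Atg13 fell in its main coding transcripts together. Atg13-201 fell by 0.63 ± 0.14 (adjusted p = 0.0379) and Atg13-202 by 0.73 ± 0.15 (adjusted p = 0.0288), and the noncoding Atg13-206 by 0.92 ± 0.16 (adjusted p = 0.0192). Each of these 3 calls ended without WT 2 (adjusted p = 0.155, 0.129 and 0.0902) and without mdx 3 (adjusted p = 0.0869, 0.0747 and 0.0537). They ended without mdx sln+/- 1 as well (adjusted p = 0.084, 0.0665 and 0.0537). For Atg13-201 the call also ended without mdx 1, mdx 2, mdx sln+/- 2 or mdx sln+/- 3 (adjusted p = 0.06, 0.0541, 0.0541 and 0.0652), and for Atg13-202 without WT 1, mdx 2 or mdx sln+/- 2 (adjusted p = 0.0589, 0.0504 and 0.0504). Rb1cc1-216 fell by 0.97 ± 0.15 (adjusted p = 0.0145, and 0.0586 without WT 2) and held 21.1% to 23.8% of the gene's abundance in WT against 14.1% to 19.6% in mdx.

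In mdx sln+/- against WT 3 transcripts rose and 9 fell, in 8 genes, beside 10.1% of transcripts called, and between mdx sln+/- and mdx 0 were called by limma, beside 0.0%. Gabarap-202, Ctsb-201 and Sqstm1-204 rose. The calls of Gabarap-202 and Ctsb-201 ended without any library except mdx 1 (adjusted p from 0.055 to 0.247 and from 0.0584 to 0.205). Sqstm1, the p62 gene, was not called, yet Sqstm1-204 rose and Sqstm1-205 fell. Sqstm1-204 has 3 exons and 953 bases. It was at 4.34 and 3.92 in WT, 4.54, 4.73 and 5.14 in mdx, and 5.37, 5.46 and 5.33 in mdx sln+/-. The groups did not overlap. The difference from WT was 0.67 ± 0.20 in mdx (adjusted p = 0.0762) and 1.25 ± 0.20 in mdx sln+/- (adjusted p = 0.0136), and its share of the gene's abundance was 4.49% to 5.25% in WT and 12.2% to 13.0% in mdx sln+/-. This transcript differed between the pair of value columns that each library has, r1 and r2. In WT it was at 4.87 and 4.68 in r1 but at 3.81 and 3.17 in r2, and with r1 alone the difference was 0.25 (adjusted p = 0.526), against 2.25 with r2 alone. The call also ended without WT 2, mdx sln+/- 1 or mdx sln+/- 3 (adjusted p = 0.0679, 0.0671 and 0.0522).

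Sqstm1-205, with 7 exons, fell by 1.02 ± 0.21 in mdx sln+/- against WT (adjusted p = 0.0249). Here too the columns differed, with -1.39 in r1 (adjusted p = 0.00843) and -0.65 in r2 (adjusted p = 0.437). The call ended without WT 1, WT 2, mdx sln+/- 1 or mdx sln+/- 3 (adjusted p = 0.0877, 0.0781, 0.113 and 0.0947). The main transcript Sqstm1-202, with 8 exons and 74.2% to 80.5% of the gene's abundance over the 8 libraries, differed by -0.16 ± 0.10 (adjusted p = 0.346). Its r1 and r2 values in WT were 8.20 and 8.15 in WT 1 and 8.02 and 7.97 in WT 2.

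**Figure D4:**
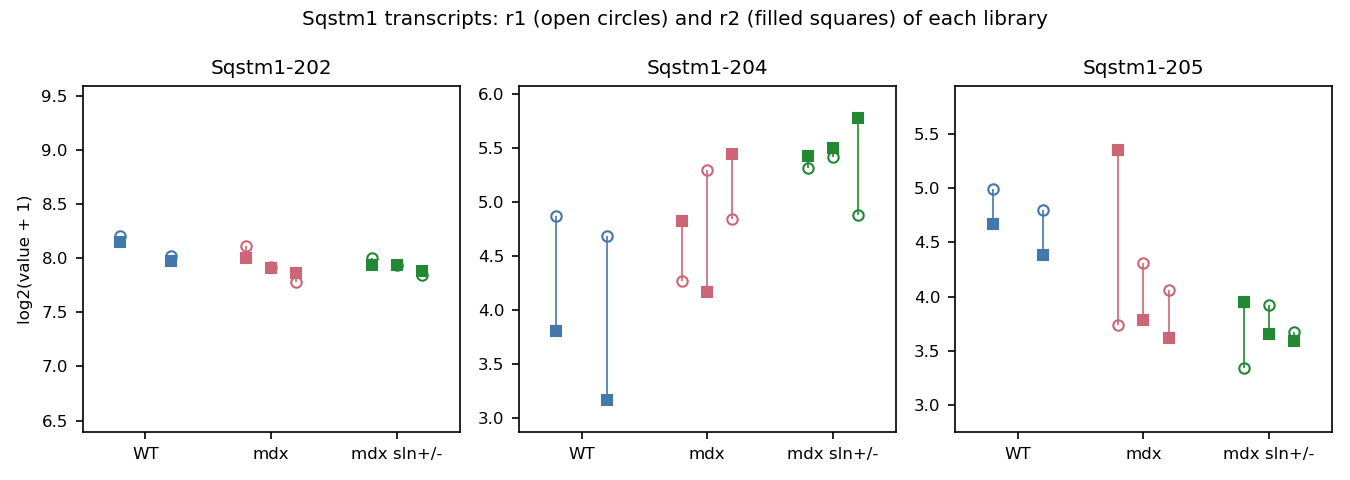
Level, as log2(value + 1), of 3 Sqstm1 transcripts in the r1 column (open circles) and the r2 column (filled squares) of each library, with a line joining the columns of a library, for 2 WT, 3 mdx and 3 mdx sln+/- libraries; panels span the same number of log2 units at different levels. For Sqstm1-204 the WT libraries stand at 4.87 and 4.68 in r1 and at 3.81 and 3.17 in r2, while Sqstm1-202 changes little between columns.

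Neighbouring steps of the same pathways were described by 5 further lists. Their counts stand beside 15.1% of all tested genes called and 32.4% with an unadjusted p under 0.05 in mdx against WT, and 15.9% and 33.7% in mdx sln+/- against WT. Of 25 other autophagy genes 0 were called in mdx against WT by limma, with 5 at an unadjusted p under 0.05, and 0 in mdx sln+/- against WT, with 4. The smallest p in mdx belonged to Snap29, a SNARE of autophagosome fusion (-0.33 ± 0.09, adjusted p = 0.0542), and Rubcn, the gene of the autophagy inhibitor Rubicon (0.37 ± 0.11, adjusted p = 0.0626). Of 13 tested genes of other cargo receptors and mitophagy 2 fell in each comparison with WT. Park2, listed under that symbol and encoding the mitophagy ligase parkin, was at 3.07 and 3.43 in WT, 2.25, 2.05 and 2.06 in mdx, and 2.00, 2.14 and 2.08 in mdx sln+/-. The 6 dystrophin-deficient libraries were well under WT, and Park2 fell by 1.13 ± 0.14 in mdx (adjusted p = 0.006) and by 1.18 ± 0.14 in mdx sln+/- (adjusted p = 0.00564). Both calls held without each single library and ended without WT 2 and mdx sln+/- 3 together (adjusted p = 0.0696 and 0.0973), and with the mean of transcript log2 values the differences were -0.68 and -0.71. Bcl2l13, a further mitochondrial receptor, fell by 0.27 ± 0.07 in mdx (adjusted p = 0.043), a call that ended without each of the 8 libraries (adjusted p from 0.0562 to 0.163). In mdx sln+/- it fell by 0.32 ± 0.07 (adjusted p = 0.025), a call that ended without WT 2, mdx sln+/- 1 or mdx sln+/- 3 (adjusted p = 0.107, 0.118 and 0.0935).

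Of 25 other lysosomal genes 4 rose and 2 fell in mdx, and 5 rose and 2 fell in mdx sln+/-. Ctsf, the gene of cathepsin F, was at 5.19 and 5.32 in WT, 3.98, 4.28 and 4.37 in mdx, and 4.46, 4.33 and 4.41 in mdx sln+/-. All 6 lay far under WT. Ctsf fell by 1.04 ± 0.13 in mdx (adjusted p = 0.00595, and held without each single library) and by 0.85 ± 0.13 in mdx sln+/- (adjusted p = 0.00924, and 0.054 without WT 2). Atp6v1h, a subunit of the proton pump that acidifies the lysosome, fell by 0.66 ± 0.09 in mdx (adjusted p = 0.00764, and held without each single library) and by 0.55 ± 0.09 in mdx sln+/- (adjusted p = 0.0124, and 0.0722 and 0.0633 without mdx sln+/- 1 or 3). With the mean of transcript log2 values its differences were -0.36 and -0.32.

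Among the lysosomal genes that rose were Ctss, Ctsz and Gusb in mdx, and Ctsa, Ctss, Gusb and Hexa in mdx sln+/-, named after their values were seen. Ctss, a cathepsin of macrophages, was at 3.66 and 3.45 in WT and between 4.11 and 4.74 in the 6 others. It rose by 0.86 ± 0.18 in mdx (adjusted p = 0.0225) and by 0.94 ± 0.18 in mdx sln+/- (adjusted p = 0.0169), and these calls ended without WT 2 (adjusted p = 0.114 and 0.0925). The first also ended without WT 1 (adjusted p = 0.0502) and the second without mdx sln+/- 1 or mdx sln+/- 3 (adjusted p = 0.0718 and 0.0656). The macrophage markers given beside Ctsb were higher in the same groups, and their part in these rises was not tested. The rises were 0.53 ± 0.11 for Ctsz and 0.33 ± 0.08 for Gusb in mdx, and 0.26 ± 0.06 for Ctsa, 0.31 ± 0.08 for Gusb and 0.38 ± 0.08 for Hexa in mdx sln+/-. Each of these 5 calls ended without at least mdx sln+/- 1 (adjusted p from 0.0504 to 0.167). Without WT 1 those of Ctsz and Gusb in mdx ended (adjusted p = 0.0637 and 0.0962), as did those of Ctsa, Gusb and Hexa in mdx sln+/- (adjusted p = 0.0843, 0.105 and 0.072). Without WT 2 the calls of Ctsz and Gusb in mdx ended (adjusted p = 0.0773 and 0.0742), and in mdx sln+/- those of Ctsa, Gusb and Hexa (adjusted p = 0.0944, 0.0776 and 0.0879). Without mdx sln+/- 3 the calls of Ctsa, Gusb and Hexa in mdx sln+/- ended (adjusted p = 0.133, 0.135 and 0.0935), and that of Gusb in mdx (adjusted p = 0.0691). Without mdx 1 that of Gusb in mdx ended (adjusted p = 0.0872). Without mdx 2 the calls of Gusb in mdx and of Ctsa and Gusb in mdx sln+/- ended (adjusted p = 0.0544, 0.0654 and 0.0657), and without mdx sln+/- 2 these 3 ended as well (adjusted p = 0.0541, 0.0648 and 0.0656). Median-ratio scaling ended those of Ctsa, Gusb and Hexa in mdx sln+/- (adjusted p = 0.0781, 0.0771 and 0.052). With the mean of transcript log2 values Ctsa stood at 0.13 in mdx sln+/- (adjusted p = 0.286).

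Among 15 genes of nutrient and energy sensing 2 fell and 0 rose in mdx, and 2 rose and 1 fell in mdx sln+/-. Mtor, the kinase that holds ULK1 in check when nutrients are plentiful, was at 5.72 and 5.71 in WT, 5.48, 5.33 and 5.40 in mdx, and 5.23, 5.33 and 5.21 in mdx sln+/-. WT was highest, and mdx touched mdx sln+/- only at its lowest library. Mtor fell by 0.31 ± 0.08 in mdx (adjusted p = 0.0393) and by 0.46 ± 0.08 in mdx sln+/- (adjusted p = 0.0124). The first call ended without any library except mdx 1 (adjusted p from 0.0557 to 0.126) and the second without WT 2, mdx sln+/- 1 or mdx sln+/- 3 (adjusted p = 0.0543, 0.0798 and 0.0656). Deptor, an inhibitor of that kinase, fell by 0.70 ± 0.16 in mdx (adjusted p = 0.0297), a call that ended without WT 2, mdx 1, mdx 3 or mdx sln+/- 1 (adjusted p = 0.131, 0.0906, 0.0509 and 0.0645).

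Ddit4 and Eif4ebp1, named after their values were seen, rose in mdx sln+/- against WT. Ddit4, a stress-induced inhibitor of mTOR signalling, was at 4.92 and 4.51 in WT, 5.08, 5.46 and 5.99 in mdx, and 5.77, 5.99 and 6.04 in mdx sln+/-. It rose by 1.22 ± 0.27 (adjusted p = 0.0258), a call that ended without WT 2, mdx sln+/- 1 or mdx sln+/- 3 (adjusted p = 0.132, 0.075 and 0.0903). Eif4ebp1, a translation repressor under mTOR, rose by 0.39 ± 0.10 (adjusted p = 0.0427), a call that ended without any library except mdx sln+/- 3 (adjusted p from 0.0528 to 0.192) and with median-ratio scaling (adjusted p = 0.0786). Of 23 other muscle proteolysis genes 1 rose and 0 fell in mdx, and 0 were called in mdx sln+/- by limma, with 6 at an unadjusted p under 0.05. The ubiquitin ligase gene Smurf1 rose by 0.28 ± 0.07 in mdx (adjusted p = 0.0435), a call that ended without WT 1, WT 2, mdx 1, mdx 3, mdx sln+/- 1 or mdx sln+/- 3 (adjusted p = 0.128, 0.0786, 0.0986, 0.108, 0.11 and 0.0793) and with median-ratio scaling (adjusted p = 0.0559). Fbxo30, another ubiquitin ligase of muscle, stood at -0.34 ± 0.10 (adjusted p = 0.0597). Between mdx sln+/- and mdx 0 genes of the 5 lists were called, with 3, 0, 2, 4 and 2 at an unadjusted p under 0.05 in the order given, beside 8.62% of all tested genes.

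**Figure D5:**
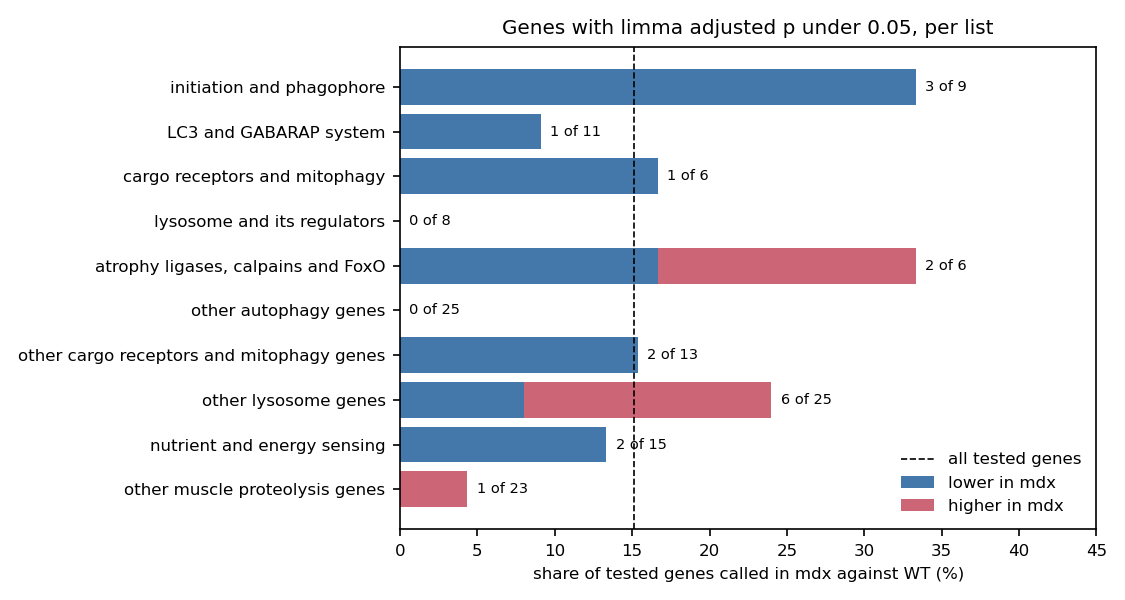
Share of the tested genes of each role and each further list with a limma adjusted p under 0.05 in mdx (3 libraries) against WT (2 libraries), lower in blue and higher in red, with the count beside each bar; the dashed line is the share of all tested genes, 15.1%. The bars run from 0 of 25 other autophagy genes to 3 of 9 initiation genes.

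Some of the named genes share their place in the genome with others, which limits what their values stand for, since it is not given whether reads were counted by strand. In GENCODE M21 an antisense gene overlaps Rb1cc1, Bnip3, Foxo1 and Capn1 each, and a noncoding gene on the opposite strand overlaps Gabarapl1. On the same strand Gm44243 overlaps Gabarapl1 and Gm38034 overlaps Foxo1, which counting by strand would not separate. Ctsb overlaps Fdft1, and Sqstm1 overlaps Mrnip, both coding genes on the opposite strand. Ulk1, Atg13 and Gabarap overlap no other gene. The genes lie on several chromosomes of mm10, for example Ulk1 at chr5:110784488-110810097, Atg13 at chr2:91674618-91710576, Rb1cc1 at chr1:6206197-6276648, Bnip3 at chr7:138890836-138909519, Foxo1 at chr3:52268336-52353221 and Fbxo32 at chr15:58175879-58214932.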

How the data were processed

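Left-ventricle RNA was measured in 8 libraries. The submitters' processing notes name STAR 2.6.1, Partek, limma and mm10, and give no role or order. The authors' deposited log2 values cover 33027 transcripts in 16 columns. Per the file headers, every library has a pair of columns, r1 and r2. That they are log2(abundance + 1), with a lowest value of 3.07e-05, was read from the values. Whether abundances were divided by transcript length, what r1 and r2 are, and whether counting used strand are not given in the sources used here, so levels are not compared between genes. The r1 and r2 columns (correlation 0.981 to 0.987) were averaged to 1 replicate, turned to linear values, summed by gene symbol and given as log2(value + 1). A fold on this scale understates changes of low genes.

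Testing covered the 13776 genes that reached a value of 1 in 2 or more libraries (793 were left out), with limma 3.58.1 in R 4.3.3 on all 8 libraries. The model held group and the term for mdx 2 and mdx sln+/- 2, with a trended prior (median prior degrees of freedom 3.36). Benjamini-Hochberg adjustment ran over all tested genes, with a threshold of 0.05. The fit was tested on simulated data. Errors after ± are standard errors from limma. Transcript ends were compared with GENCODE M21, in which 122 of 124 starts and 123 of 124 ends were the same.

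The 40 genes and all lists were chosen with earlier results of these data known. Text names the 40 genes, Dmd, and of each further list the 2 genes with the smallest adjusted p in mdx against WT. Atg101 is named, without values, for its place in the ULK1 complex. Others with values were chosen after these were seen. The values of 1 gene of these lists are not reported here. Alternatives were group only, name style as a term, a replicate block, median-ratio and upper-quartile scaling, a pseudocount of 0.25 in place of 1, no filter, a mean of at least 5, r1 or r2 alone, the groups compared alone, each library left out, a prior without a trend and the mean of transcript log2 values. Leaving out the long-named libraries, and leaving out WT 2 with mdx sln+/- 3, were chosen after seeing the data. With WT and only mdx or only mdx sln+/- fitted, the term takes up mdx 2 or mdx sln+/- 2. That library then adds nothing to the mean of its group. Tables were prepared in pandas 2.3.3 and numpy 2.4.6 under Python 3.11.15, and figures were drawn in matplotlib 3.10.9.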

Additional observations from a re-analysis of the deposited data

How the results depend on the processing

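Between mdx sln+/- and mdx 0 genes were called by limma under each of the 23 alternatives. The 15 calls of the 40 genes against WT, under those 23 settings, kept their direction in all 345 refits and their call in 223. Not all of these refits are distinct, since those without mdx 2 and without mdx sln+/- 2 drop the same pair. In mdx against WT, 2080 genes and 7 of the 40 were called. Group only gave 3797 genes, and name style as a term 559 and 4 of the 40. The 2 groups alone, where the term takes up mdx 2, gave 545 and 2. The short-named libraries alone gave 123 and 0, and WT 2 and mdx sln+/- 3 left out 126 and 0. Each library left out in turn gave 575 (WT 2) to 1819 genes (mdx sln+/- 2) and 2 to 7 of the 40. In mdx sln+/- against WT, 2191 genes and 8 of the 40 were called. Group only gave 3994 genes, name style 711 and 2 of the 40, the short-named libraries alone 336 and 1, and WT 2 and mdx sln+/- 3 left out 39 and 0. Leaving out each library gave 316 (mdx sln+/- 1) to 2408 genes (mdx 1) and 1 to 8 of the 40. Of the 40 genes, 5 were called with median-ratio scaling, with upper-quartile scaling and with the 2 groups alone, where the term takes up mdx sln+/- 2. The count was 3 with r1 alone, and 4 with the prior without a trend and with the mean of transcript log2 values. The cause of these moves was not tested. The fits that leave out libraries have fewer of them. With median-ratio scaling 1016 genes rose and 1093 fell in mdx (1123 and 957 as deposited), and 940 rose and 1134 fell in mdx sln+/- (1296 and 895). With the replicate number as a block, 2398 genes and 8 of the 40 were called in mdx against WT, 2361 and 7 in mdx sln+/- against WT, and 0 between mdx sln+/- and mdx. Deviations of mdx and mdx sln+/- libraries with the same number correlated at -0.264, -0.996 and -0.311. The removed contrast sets the second and also bears on the others, because deviations sum to 0 within a group. These values therefore cannot show whether libraries with the same number are pairs. Depth is unknown, so precision rests on the spread of 2 or 3 libraries.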
